A study of Mus musculus with 16 samples.

Results

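The genes described here are 27 lysosomal genes of mouse liver, 11 of them named cathepsins and the others lysosomal hydrolases, lipid-handling proteins and membrane proteins. They were chosen by name, and a row with each name was present in both count tables, so that 27 of 24421 rows are covered. The lysosome is the acidic compartment in which proteins, glycans, glycolipids and cholesterol esters taken up by endocytosis, phagocytosis or autophagy are broken down. Most of its soluble enzymes carry a mannose 6-phosphate tag that directs them there, and many of their genes share a short promoter motif, the CLEAR element, which is bound by the transcription factors TFEB and TFE3. Hepatocytes make up most of the liver's mass, while Kupffer cells and other macrophages are especially rich in cathepsin S, legumain and the membrane protein LAPTM5.

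RNA was sequenced from whole liver in 16 libraries, 4 in each of 4 groups. The double knockout group (DKO) was homozygous for floxed Arid1a and floxed Arid1b and carried Alb-Cre, and its controls had the same floxed alleles but were Cre-negative. The single knockout group (BKO) was homozygous for floxed Arid1b with Alb-Cre, next to Cre-negative controls with floxed Arid1b. ARID1A and ARID1B are alternative DNA-binding subunits of the BAF chromatin remodelling complex. Alb-Cre is driven by the albumin promoter and so acts in hepatocytes, which leaves macrophages, stellate cells and endothelium of the same liver with intact alleles. Every knockout library carried Cre and every control lacked it, and ARID1A was not removed on its own in any group, so effects of Cre itself and of ARID1A alone cannot be told apart from the rest. The labels used here state no age and do not say that each library came from its own animal, and the tags of controls F5 and F5-2 share a number, so p-values measure the spread between these libraries, which may be technical.

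Each library of the DKO experiment had 8699417 to 11031443 counts in total, and each of the BKO experiment had 21151726 to 40551934. Arid1b was at 45.4 to 78.04 CPM, the depth-scaled unit used throughout (with TMM factors), in DKO libraries against 80.7 to 97.3 in their controls, and at 40.1 to 48.4 in BKO libraries against 81.9 to 86.4. Arid1a was at 99.6 to 114 against 112 to 136 CPM in the DKO experiment, where the groups overlapped and the test was not passed (edgeR adjusted p = 0.149). These gene-wide counts hold all exons and all liver cells, so they do not check the deletion itself. Albumin, the defining hepatocyte transcript, made up 3.76 to 6.38% of all counts in DKO and 8.62 to 9.94% in control libraries of that experiment. Library DKO-7112 had the lowest albumin share, and DKO-7068 and DKO-7070 were closer to each other than any other pair within a group. In the BKO group, library F4 was the highest of its 4 libraries for 22 of the 27 genes, and it also had the highest macrophage and Kupffer cell marker levels.

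In DKO livers, 14 of the 27 lysosomal genes were higher than in controls, 3 were lower and 10 did not pass the test. The 5 largest increases were those of the cysteine proteases Ctsk, Ctsl, Ctss and Lgmn and of the membrane protein gene Laptm5, at log2 fold changes of 1.33 to 1.98. The 3 lower genes were Ctsh, encoding an aminopeptidase (-0.49), and the lysosomal membrane protein genes Scarb2 (-0.70) and Lamp2 (-0.47). The call is an edgeR quasi-likelihood test with Benjamini-Hochberg adjustment over 12848 genes at an adjusted p under 0.05. The filter on low counts was passed by 27 of the 27 in this experiment and by 26 in the BKO experiment. Ctsk passed it in this experiment only through its DKO libraries, so its place among the higher genes is a description and no test. The same test called 19.2% of all genes higher and 16.6% lower, so that the share of the 27 that was higher, 51.9%, lay above the background and the share that was lower, 11.1%, below it. The 27 were chosen with earlier results of these data known, so these shares describe them and test no excess. The median log2 fold change was 0.33 over the 27 genes and 0.02 over all genes. For 16 of the 27 every DKO library lay above every control library, which held for 18.5% of all genes tested, and for 3 every DKO library lay below every control, which held for 16.9%. Those 16 are the 14 higher genes together with Lamp1 and Npc2, and the 3 are the lower genes. The 27 genes together took 0.542 to 0.635% of all counts in DKO and 0.374 to 0.410% in control libraries.

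Scaling changed part of this picture. With libraries scaled by total counts only, 17 of the 27 were higher and 1 was lower, and the split over all genes moved from 2467 higher and 2137 lower to 3266 and 1269. The median of all genes then stood at 0.20 instead of 0.02, the calls of Ctsh and Lamp2 ended, and Lamp1, Gusb and Npc2 passed as higher. The 17 genes called in DKO livers had the same direction in both tag series, the 4 libraries from WT-7067 to DKO-7070 and the 4 from DKO-7112 to WT-7139.

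**Figure D1:**
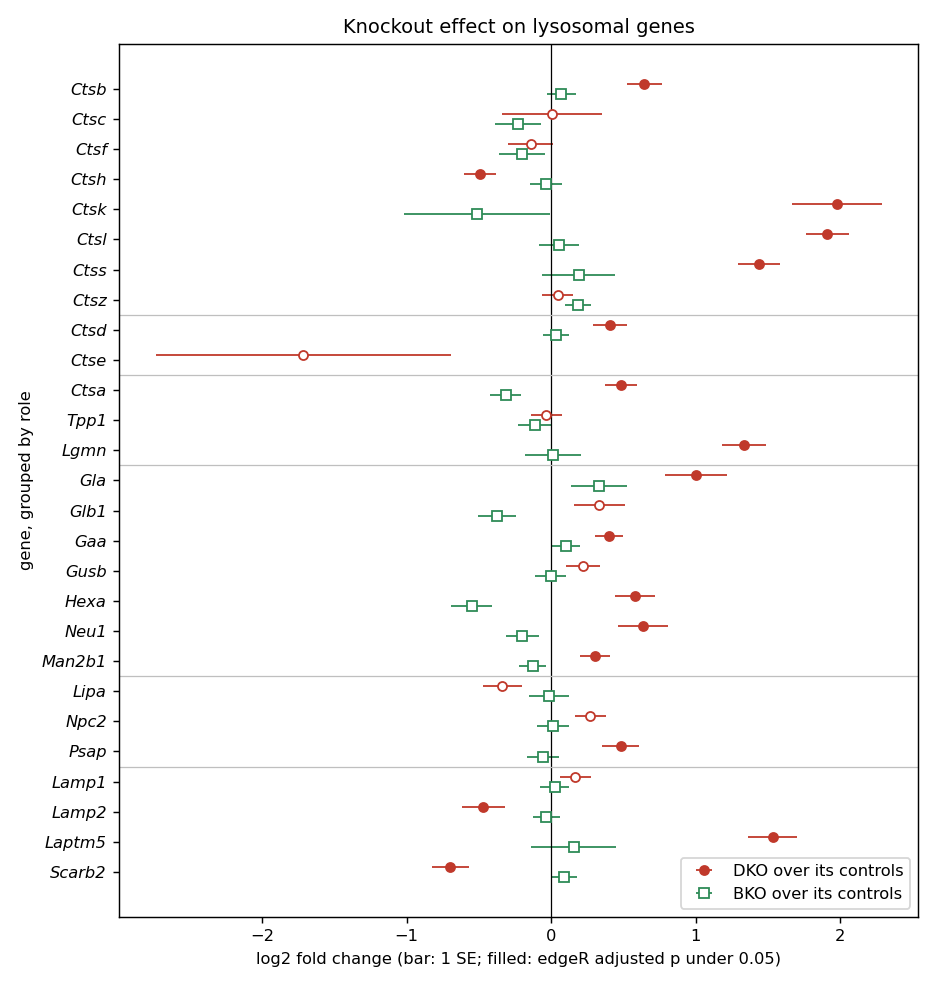
Log2 fold change of each of the 27 lysosomal genes in DKO livers (red circles) and BKO livers (green squares) over their own controls, grouped by role, with bars of 1 standard error (n = 4 libraries per group). Filled symbols passed the edgeR test at an adjusted p under 0.05, 14 to the right and 3 to the left of 0 in DKO and 0 in BKO, where Ctse was too low for that test.

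The promoters of 24 of the 27 genes were given in the RefSeq tables for GRCm38.p6, as windows of 300 bases from 250 before to 50 after the transcription start; Ctsb, Ctse and Ctsh had none. The CLEAR core was searched as TCACGTG on either strand, and the shorter E-box within it as CACGTG, so that every CLEAR core is also an E-box. A core was present in 7 of 24 windows (29.2%), against 4.29% of 27025 genes with a window, and an E-box in 9 of 24 (37.5%) against 8.09%. The 7 are Ctsa, Ctsd, Gaa, Gla, Glb1, Lamp1 and Lgmn, and the E-box alone was found in Ctsf and Ctsl. In DKO livers 5 of the 7 genes with the core were higher and 0 lower, and 8 of the 17 genes without it were higher and 2 lower. Over all genes tested, 19.2% were higher and 16.6% lower. Calls among all genes with the core were not counted, and a link between the core and the change was not tested. Stretches of these windows that hold a core are shown, since it is a sequence that these genes of unlike function share. They run 5′ to 3′ on the gene's strand and reach at most 15 bases past the start. A core ending farther past the start was searched but would not be shown. Capitals mark CACGTG with a T before it or an A after it.
Ctsa (chr2:164833741-164833787, plus strand): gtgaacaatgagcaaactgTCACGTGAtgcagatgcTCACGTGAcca
Ctsd (chr7:142388047-142388077, minus strand): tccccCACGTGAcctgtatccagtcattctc
Ctsd (chr7:142387900-142387945, minus strand): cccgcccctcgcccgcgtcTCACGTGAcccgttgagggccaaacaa
Gaa (chr11:119267803-119267848, plus strand): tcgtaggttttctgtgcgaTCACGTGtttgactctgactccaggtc
Gla (chrX:134601174-134601252, minus strand): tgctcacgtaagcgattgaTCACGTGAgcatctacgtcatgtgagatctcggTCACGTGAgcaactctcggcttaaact
Glb1 (chr9:114401010-114401055, plus strand): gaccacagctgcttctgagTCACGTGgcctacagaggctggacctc
Lamp1 (chr8:13159080-13159171, plus strand): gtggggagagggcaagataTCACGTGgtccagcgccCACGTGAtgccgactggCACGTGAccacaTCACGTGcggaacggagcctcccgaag
Lgmn (chr12:102439116-102439161, minus strand): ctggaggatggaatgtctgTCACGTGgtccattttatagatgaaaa

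In the stretches shown, Lamp1 had 4 copies within 92 bases and Gla and Ctsa had 2 each within 1 stretch. Ctsd had 2 in separate stretches, beginning 245 and 98 bases before its start. Ctsl, the gene with the most significant increase of the 27, had an E-box without the flanking letters of the core, 236 bases before its start (chr13:64370731-64370770, minus strand), here in capitals.
Ctsl: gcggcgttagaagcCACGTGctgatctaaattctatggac
The PU.1 and other ETS factor type motif AGGAAGT, again on either strand, was in a window of 4 of the 24 genes (16.7%), Ctsc, Ctss, Gla and Gusb, against 10.7% of all genes with a window. In Ctss it begins 2 bases before the start and spans it (chr3:95526764-95526800, plus strand), here as its reverse complement in capitals.
Ctss: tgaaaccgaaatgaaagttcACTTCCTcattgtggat
A match shows that these letters occur in the window and nothing of what binds there. The starts are those of the RefSeq windows, and the stretches of Ctsl and Lgmn lie inside the longer GENCODE spans of these genes given below.

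Among the 8 cysteine cathepsins, 4 were higher in DKO livers, 1 was lower and 3 did not pass. This count and those by role below stand beside 19.2% of all genes higher and 16.6% lower. Per-library values follow as CPM in the order DKO-7068, DKO-7070, DKO-7112 and DKO-7137, then WT-7067, WT-7069, WT-7114 and WT-7139 for the controls. Ctsl, the endopeptidase cathepsin L (GENCODE M21 on GRCm38 chromosome 13, 64359337 to 64370890, minus strand), was at 1155, 970.2, 967 and 1148 in DKO and at 274, 247, 277 and 332 in controls. Every DKO library held 967 CPM or more and every control 332 or less, a 3.75-fold ratio of means (edgeR log2 fold change 1.91 with SE 0.15 and adjusted p = 1.46e-05). Ctss, cathepsin S, which trims the invariant chain of MHC class II in antigen-presenting cells, was at 80.4, 86.3, 74.1 and 70.7 in DKO and 25.2, 37.8, 27.1 and 24.7 in controls (edgeR log2 fold change 1.44 with SE 0.15 and adjusted p = 6.77e-05). Its highest control, WT-7069, is also the control with the highest macrophage marker sum. Ctsk, the collagen-degrading cathepsin known from osteoclasts, had few counts, at 6.16, 4.95, 3.58 and 3.005 CPM in DKO and 1.23, 1.43, 0.897 and 0.883 in controls. These are 29 to 75 counts per DKO library and 7 to 15 per control (edgeR log2 fold change 1.98 with SE 0.31 and adjusted p = 0.000855), and DKO-7068 and DKO-7070 were the higher pair. The controls of Ctsk alone were too low for the filter on low counts, so it could be tested only because it was high enough in DKO. Ctsb, cathepsin B, the most abundant of the 27 by CPM in controls after Lamp2, was at 829.8, 826, 874 and 903 in DKO and 552, 508, 555 and 583 in controls (edgeR log2 fold change 0.64 with SE 0.12 and adjusted p = 0.00238).

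Cathepsin H went the other way. Ctsh was at 117, 136, 126 and 128 CPM in DKO and 162, 192, 161 and 197 in controls, with the groups apart (edgeR log2 fold change -0.49 with SE 0.11 and adjusted p = 0.0066). Ctsz, a carboxypeptidase, overlapped between groups at 122 ± 9.07 against 118 ± 11.5 CPM (SD, n = 4 each, edgeR log2 fold change 0.046 with SE 0.11 and adjusted p = 0.775), and so did the endopeptidase gene Ctsf at 20.5 ± 3.53 against 22.7 ± 3.24 CPM (edgeR log2 fold change -0.14 with SE 0.15 and adjusted p = 0.512). Ctsc, a dipeptidyl peptidase that activates granule proteases of leukocytes, was the most uneven of the abundant genes, at 70.4, 69.99, 206 and 101 in DKO and 84.9, 126, 116 and 119 in controls. DKO-7112 lay above every control and DKO-7068 and DKO-7070 below every control (edgeR log2 fold change 0.0038 with SE 0.34 and adjusted p = 0.995). Without DKO-7112 the log2 fold change of Ctsc was -0.50 (edgeR adjusted p = 0.0476).

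Of the 2 aspartic cathepsins, 1 was higher and 1 did not pass. Ctsd, cathepsin D, the main aspartic protease of lysosomes, was at 348, 318, 325 and 337 CPM in DKO and 279, 222, 244 and 255 in controls (edgeR log2 fold change 0.41 with SE 0.12 and adjusted p = 0.0205). The groups did not overlap, but the call ended when DKO-7068, WT-7069 or WT-7114 was left out (edgeR adjusted p = 0.0607, 0.0629 and 0.0566). Ctse, cathepsin E, a protease of stomach and some immune cells, was near its detection limit in most libraries, at 2.299, 1.799, 0.326 and 1.35 in DKO and 0.224, 8.97, 9.54 and 0.505 in controls. WT-7069 and WT-7114 held 94 and 85 counts and WT-7067 and WT-7139 held 2 and 4, so the controls fell on both sides of the DKO libraries (edgeR log2 fold change -1.71 with SE 1.02 and adjusted p = 0.232). Of the other 3 proteases, Lgmn and Ctsa were higher and Tpp1 did not pass. Lgmn, legumain, an asparaginyl endopeptidase that matures other cathepsins (minus strand of chromosome 12, 102394084 to 102439813), was at 115, 115, 134 and 122 in DKO and 40.8, 64.6, 45.4 and 42.3 in controls (edgeR log2 fold change 1.33 with SE 0.15 and adjusted p = 0.000119). As for Ctss, WT-7069 was the highest control. Ctsa, a serine carboxypeptidase that also holds NEU1 and beta-galactosidase in a stable complex, was at 159, 154, 153 and 172 in DKO and 96.96, 115, 119 and 126 in controls (edgeR log2 fold change 0.48 with SE 0.11 and adjusted p = 0.00666). Tpp1, a tripeptidyl peptidase, was at 112 ± 7.19 against 115 ± 11.04 CPM (edgeR log2 fold change -0.032 with SE 0.11 and adjusted p = 0.841).

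**Figure D2:**
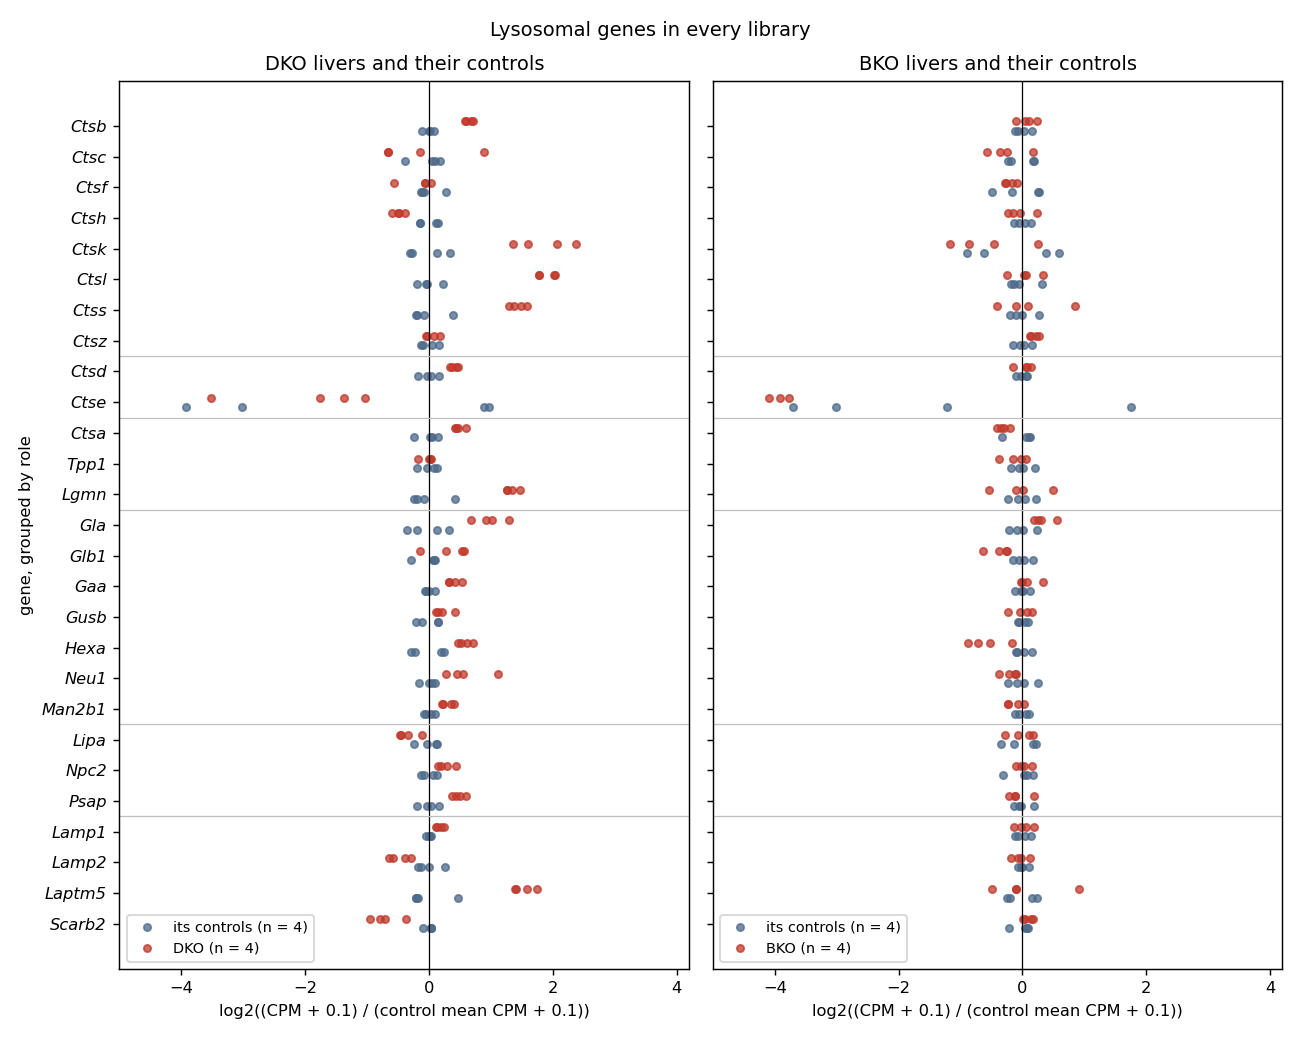
Level of each of the 27 genes in every library, as log2 of CPM over the mean CPM of the 4 controls of the same experiment, with 0.1 CPM added to both; left DKO and its controls, right BKO and its controls, 1 point per library. Ctsl, Ctss, Ctsk, Lgmn and Laptm5 stand apart from the controls in all 4 DKO libraries, while Ctse and Ctsc spread widely within groups.

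All 7 lysosomal glycosidases had a positive log2 fold change in DKO livers, as did 6628 of all 12848 genes tested. Of the 7, 5 passed the test and 2 did not, where 19.2% of all genes were called higher. Gla, the alpha-galactosidase A that clears globotriaosylceramide, was low in level, at 7.47, 6.297, 8.03 and 9.74 CPM in DKO and 3.02, 4.296, 4.94 and 3.41 in controls (edgeR log2 fold change 1.00 with SE 0.21 and adjusted p = 0.00453). Hexa, the alpha subunit of hexosaminidase A, was at 45.2, 46.96, 53.5 and 49.9 in DKO and 27.9, 38.8, 37.4 and 26.6 in controls (edgeR log2 fold change 0.58 with SE 0.14 and adjusted p = 0.00835). Hexa controls spread from 26.6 to 38.8, still below the lowest DKO library. Neu1, the lysosomal sialidase, was at 46.2, 49.3, 73.3 and 40.8 in DKO and 30.2, 36.1, 33.5 and 34.95 in controls (edgeR log2 fold change 0.64 with SE 0.17 and adjusted p = 0.0145), with DKO-7112 well above the other DKO libraries. Gaa, the acid alpha-glucosidase that degrades glycogen in lysosomes, was at 144, 144, 153 and 166 in DKO and 111, 110.3, 115 and 123 in controls (edgeR log2 fold change 0.40 with SE 0.099 and adjusted p = 0.00977). Man2b1, lysosomal alpha-mannosidase, had the smallest called increase, at 185, 191, 169 and 167 in DKO and 135, 154, 139 and 147 in controls (edgeR log2 fold change 0.31 with SE 0.10 and adjusted p = 0.0406). That call held in 1 of the 8 fits that left out a library, the one without DKO-7137, and ended in the others (edgeR adjusted p of 0.0522 to 0.132). The Man2b1 call also ended with DKO-7068 and DKO-7070 summed into 1 replicate (edgeR adjusted p = 0.119). Glb1, beta-galactosidase, was at 21.4, 20.9, 17.4 and 12.95 in DKO and 15.5, 15.3, 11.8 and 15.1 in controls, and DKO-7137 lay among the controls (edgeR log2 fold change 0.33 with SE 0.17 and adjusted p = 0.164). Without DKO-7137 it passed (0.46, edgeR adjusted p = 0.035). Gusb, beta-glucuronidase, was at 40.1 ± 4.01 against 34.4 ± 4.22 CPM (edgeR log2 fold change 0.22 with SE 0.12 and adjusted p = 0.171).

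Of the 3 lipid-handling genes, 1 was higher and 2 did not pass. Psap encodes prosaposin, the precursor of the saposins that present glycolipids to hydrolases, and was the most abundant of the 27 per exon length in both groups. It was at 636, 685, 609 and 580.0 CPM in DKO and 395, 503, 441 and 461 in controls (edgeR log2 fold change 0.48 with SE 0.13 and adjusted p = 0.0156), and the call ended without DKO-7070 or WT-7067 (edgeR adjusted p = 0.0556 and 0.0539). Npc2, which binds cholesterol in the lysosomal lumen, was at 61.9, 68.9, 76.1 and 64.7 in DKO and 58.9, 61.6, 51.2 and 53.2 in controls, a narrow separation that did not pass (edgeR log2 fold change 0.27 with SE 0.11 and adjusted p = 0.068). Lipa, the acid lipase that hydrolyses cholesterol esters and triglycerides, was at 232, 229, 293 and 251 in DKO and 309, 269.9, 342 and 349 in controls (edgeR log2 fold change -0.34 with SE 0.14 and adjusted p = 0.0777). DKO-7112 was the one DKO library inside the control range of Lipa, and the gene passed as lower without DKO-7112 (-0.44, edgeR adjusted p = 0.0231) or without WT-7069 (edgeR adjusted p = 0.0494). It also passed with the tag series as a term (-0.34, edgeR adjusted p = 0.0405) and by the DESeq2 Wald test (-0.37, adjusted p = 0.0287).

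The 4 membrane protein genes split, with 1 higher, 2 lower and 1 that did not pass. Laptm5, a lysosomal membrane protein of blood-derived cells, was at 51.7, 58.4, 65.3 and 51.3 CPM in DKO and 17.2, 27.1, 16.8 and 16.9 in controls (edgeR log2 fold change 1.53 with SE 0.17 and adjusted p = 0.000101). Here too WT-7069 was the highest control, and it stood apart from the other controls. Scarb2, LIMP-2, the receptor that carries glucocerebrosidase to the lysosome (chromosome 5, 92441314 to 92506833), was at 77.4, 82.1, 104 and 69.3 in DKO and 137, 138, 138 and 126 in controls (edgeR log2 fold change -0.70 with SE 0.13 and adjusted p = 0.00198). The highest DKO library of Scarb2 was DKO-7112. Lamp2, a major glycoprotein of the lysosomal membrane that is also needed for chaperone-mediated autophagy, was at 435, 419, 497 and 533 in DKO and 579, 596, 651 and 782 in controls (edgeR log2 fold change -0.47 with SE 0.15 and adjusted p = 0.0312). The call of Lamp2 ended in 4 of the 8 fits that left out a library, those without DKO-7068, DKO-7070, WT-7114 or WT-7139 (edgeR adjusted p of 0.06 to 0.0772). The Lamp2 call also ended with DKO-7068 and DKO-7070 summed into 1 replicate (edgeR adjusted p = 0.0718). Lamp1, its paralogue, was at 384, 377, 414 and 398 in DKO and 349.9, 339, 353 and 359 in controls, above the controls in 4 of 4 libraries by a margin too small to pass (edgeR log2 fold change 0.17 with SE 0.11 and adjusted p = 0.266).

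Levels of different genes were compared per length, as RPKM (CPM per kilobase of GENCODE M21 exons). This length joins all annotated exons of a gene and is at least that of any single transcript, so ranks and shares between genes depend on it. In controls of the DKO experiment Ctsl was above Ctsz by CPM (282 and 118) but below it by RPKM (43.5 and 82.0). In controls of the DKO experiment Psap was the highest at 164 RPKM, followed by Lamp1 at 131, Ctsd at 106 and Ctsb at 90.8, and Ctsk was the lowest at 0.735. Ctsl rose from rank 8 to rank 2, from 43.5 to 163 RPKM, and Ctss from rank 14 to rank 7 and Lgmn from rank 15 to rank 8. Scarb2 went from rank 13 to rank 20. The 11 cathepsins summed to 677 ± 21.3 RPKM in DKO livers and 434 ± 19.9 in controls (SD, n = 4 each). Within that sum the share of Ctsl was 24.1 ± 1.94% in DKO and 10.01 ± 0.855% in controls, and that of Ctss 8.49 ± 1.01% and 4.897 ± 1.14%. Ctsz made up 12.5 ± 0.808% of it in DKO and 18.9 ± 1.17% in controls, and Ctsh 4.16 ± 0.356% and 9.12 ± 0.761%. The share of Ctsb was 20.95 ± 0.5997% and 20.9 ± 0.924%. These shares describe the make-up of the group and were not tested, and since they add up to the whole, a rise in one lowers the others. In the BKO experiment the sum was 384 ± 33.1 against 372 ± 32.5 RPKM and the share of Ctsl 12.1 ± 1.802% against 11.9 ± 1.26%.

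**Figure D3:**
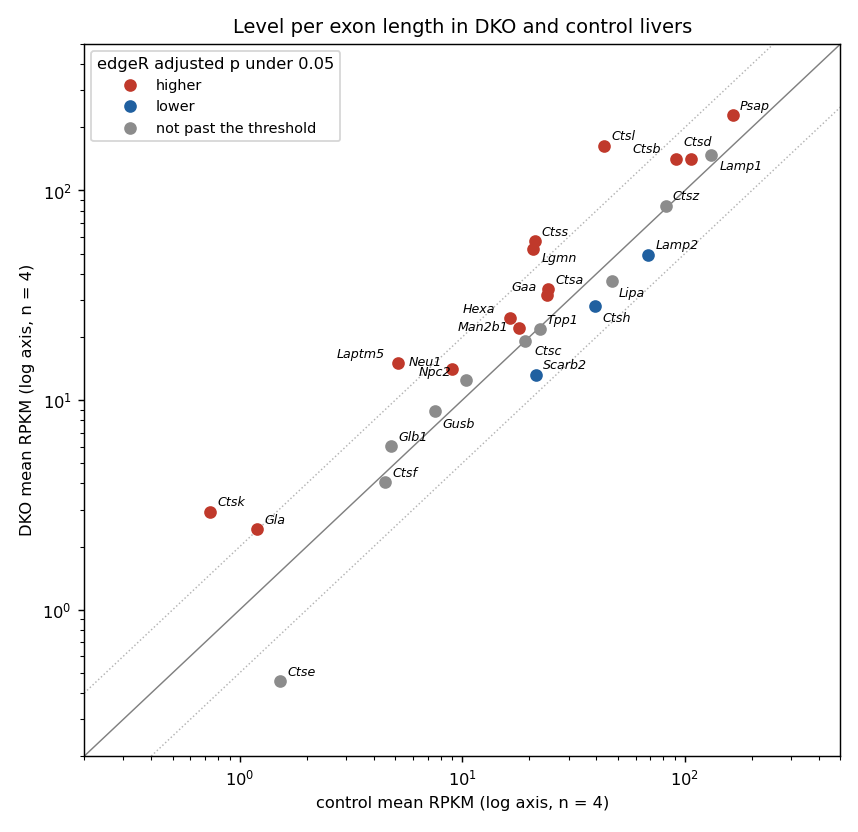
Mean RPKM of each of the 27 genes in DKO livers (vertical log axis) against their controls (horizontal log axis), n = 4 libraries each, with the line of equality and dotted lines at ratios of 2 and 0.5. Ctsl, Ctss, Lgmn, Laptm5, Ctsk and Gla lie at or above the upper dotted line and Scarb2 is the called gene farthest below equality.

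**Figure D4:**
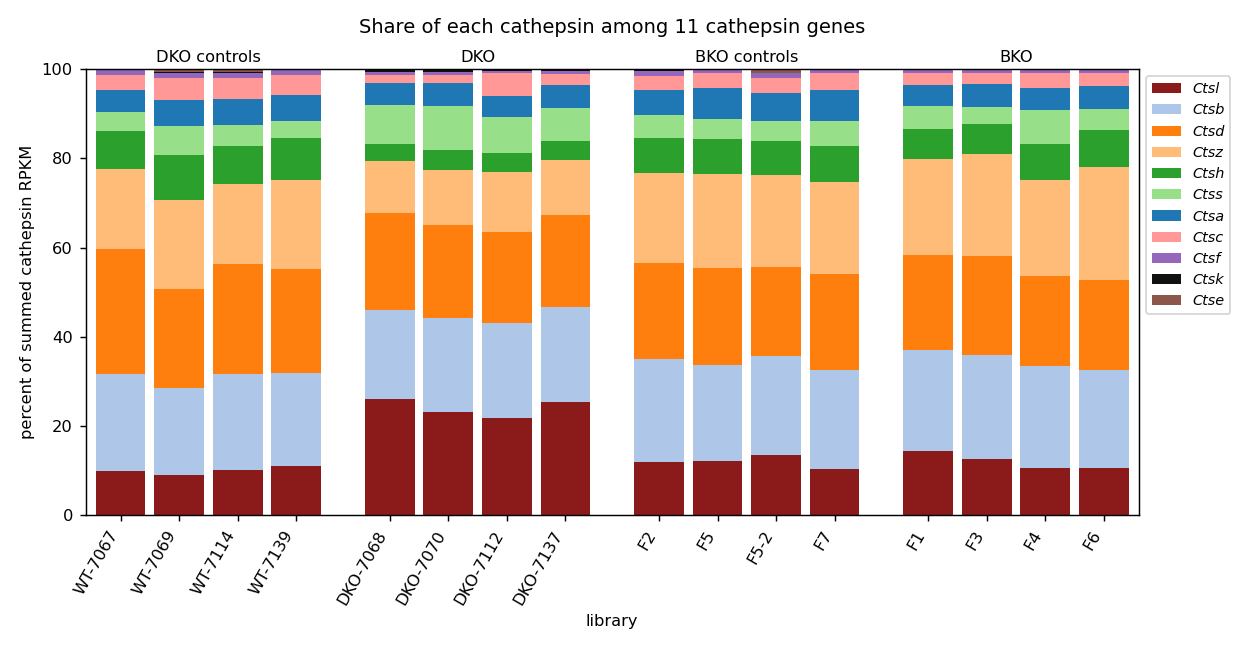
Percent of the summed RPKM of 11 cathepsins taken by each gene, 1 bar per library in the 4 groups. Ctsl, at the bottom of each bar, takes 21.9 to 26.1% in DKO and 8.94 to 11.03% in control libraries of that experiment.

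In BKO livers, 0 of the 26 lysosomal genes tested passed as higher and 0 as lower by edgeR. Calls were rare in this comparison, at 0.185% of 14061 genes higher and 0.398% lower. An unadjusted p under 0.05 was found for 3 of the 26 (11.5%), near the 11.6% of all genes tested. Of the other tools, limma with voom called 0, and DESeq2 called 2 as lower, Hexa and Ctse. Ctse had 331 counts in control F5-2 and 4 to 46 in the other controls. Log2 fold changes ran from -0.55 for Hexa to 0.33 for Gla, and the median was -0.0083. Values follow in the order F1, F3, F4 and F6 for BKO, then F2, F5, F5-2 and F7 for the controls. Hexa was at 16.9, 18.99, 27.8 and 21.7 CPM in BKO and 29.3, 28.96, 31.9 and 35.03 in controls, apart by a small gap (edgeR log2 fold change -0.55 with SE 0.14 and adjusted p = 0.135). F4 was its highest BKO library, and without F4 Hexa passed as lower (-0.70, edgeR adjusted p = 0.0274). Glb1 was at 9.81, 10.6, 10.7 and 8.21 in BKO and 11.4, 12.97, 12.3 and 14.4 in controls (edgeR log2 fold change -0.37 with SE 0.13 and adjusted p = 0.283). Those were the 2 of 26 genes whose BKO libraries all lay below the controls, against 3.35% of all genes, and 0 lay wholly above, against 3.64%. Ctsa, the partner of beta-galactosidase, was at 87.9, 91.2, 97.1 and 84.3 in BKO and 88.98, 117, 121 and 121 in controls, where F2 stood apart from the other 3 (edgeR log2 fold change -0.31 with SE 0.11 and adjusted p = 0.273).

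Of the 5 genes with the largest increases in DKO livers, 0 passed in BKO livers. Ctsl was at 363, 301, 293 and 244 CPM in BKO and 262, 279, 361 and 255 in controls (edgeR log2 fold change 0.054 with SE 0.14 and adjusted p = 0.927). Ctss was at 26.6, 18.8, 45.04 and 23.2 in BKO and 23.2, 21.7, 24.8 and 29.9 in controls, with F4 above the rest (edgeR log2 fold change 0.19 with SE 0.25 and adjusted p = 0.837). Laptm5 at 16.5, 12.5, 33.3 and 16.5 against 14.8, 15.4, 20.9 and 19.6 and Lgmn at 40.8, 27.8, 57.1 and 37.7 against 34.6, 41.7, 38.6 and 47.3 were likewise highest in F4. Without F4 the log2 fold changes of Ctss, Laptm5 and Lgmn were -0.13, -0.23 and -0.20, instead of 0.19, 0.16 and 0.011. Ctsk was at 0.441, 0.339, 1.07 and 0.619 in BKO and 1.38, 0.431, 0.542 and 1.18 in controls, 9 to 47 counts per library, and overlapped (edgeR log2 fold change -0.51 with SE 0.50 and adjusted p = 0.758). Scarb2 was at 100.4, 98.8, 109.7 and 108 in BKO and 100.4, 104, 84.5 and 103 in controls (edgeR log2 fold change 0.089 with SE 0.091 and adjusted p = 0.772). Ctse was too low to be tested by edgeR within this experiment, with 0 to 6 counts in the BKO libraries, but control F5-2 held 331 counts (11.2 CPM) against 4 to 46 in the other controls. In the fit over all 16 libraries its DKO effect minus its BKO effect was 3.19 and did not pass (SE 1.97, edgeR adjusted p = 0.275). The other genes had log2 fold changes between -0.23 (Ctsc) and 0.19 (Ctsz) apart from Gla.

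Whether the knockout effect itself differed between the experiments was tested as the DKO effect minus the BKO effect in 1 fit over all 16 libraries, each knockout against its own controls. It was higher in DKO for 12 of the 27 genes and lower for 2, where 11% of 14050 genes were higher and 11.5% lower, and the median difference was 0.40 over the 27 and -0.0096 over all genes. Here too the choice of the 27 with earlier results known means that these shares test no excess. The cysteine cathepsins Ctsl (1.82 with SE 0.20 and edgeR adjusted p = 1.3e-05), Ctss (1.22 with SE 0.30 and edgeR adjusted p = 0.00885), Ctsb (0.54 with SE 0.15 and edgeR adjusted p = 0.0129) and Ctsk (2.46 with SE 0.60 and edgeR adjusted p = 0.00732) were among the 12. So were Lgmn (1.29 with SE 0.26 and edgeR adjusted p = 0.00187) and Laptm5 (1.35 with SE 0.36 and edgeR adjusted p = 0.0129). Hexa had a difference of 1.10 (SE 0.21, edgeR adjusted p = 0.00123), which sums a called increase in DKO and a negative value in BKO that was not called. Neu1, Ctsa, Glb1, Psap and Man2b1 completed the list, at differences of 0.80, 0.77, 0.68, 0.51 and 0.40. Glb1 thus passed here without passing in either experiment. Scarb2 (-0.82 with SE 0.15 and edgeR adjusted p = 0.00121) and Ctsh (-0.49 with SE 0.16 and edgeR adjusted p = 0.0322) were the 2 lower genes. Ctsd (0.34 with SE 0.13 and edgeR adjusted p = 0.0774), Gla (0.64 with SE 0.27 and edgeR adjusted p = 0.0981), Gaa (0.27 with SE 0.13 and edgeR adjusted p = 0.163) and Lamp2 (-0.47 with SE 0.17 and edgeR adjusted p = 0.0557) were called in DKO, but their difference from BKO did not pass. That of Lamp2 passed with the tag series as a term (-0.47, edgeR adjusted p = 0.0213), by the DESeq2 Wald test (adjusted p = 0.0287) and without DKO-7112, DKO-7137 or WT-7067 (edgeR adjusted p = 0.0495, 0.0325 and 0.0434). That of Ctsd passed by the DESeq2 Wald test (adjusted p = 0.0225). Scaling by total counts only gave 17 higher and 1 lower, with the median of all genes at 0.27 and a split of 2627 higher and 744 lower instead of 1552 and 1610. With 1 library left out, the calls of Ctsh, Glb1, Psap and Man2b1 ended in 7, 5, 9 and 8 of 16 fits, and the other 10 calls did not end in any.

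Other genes of the lysosomal system were described by lists, whose shares stand beside 19.2% higher and 16.6% lower over all genes in DKO livers. Of 35 further lysosomal hydrolases tested, 9 were higher in DKO livers and 4 lower, which is 25.7% and 11.4%, with a median log2 fold change of 0.19. Pld3, an endolysosomal nuclease, was higher at 37 ± 5.81 against 19.4 ± 1.85 CPM (edgeR log2 fold change 0.94 with SE 0.13 and adjusted p = 0.000459). Hyal1, lysosomal hyaluronidase, was lower at 30.5 ± 4.05 against 64.6 ± 10.1 CPM (edgeR log2 fold change -1.08 with SE 0.14 and adjusted p = 0.000253). Of 29 further membrane proteins, 7 were higher and 6 lower (24.1% and 20.7%), both near those shares. Cd63, a tetraspanin of late endosomes and lysosomes, had the largest increase of the lists, at 95.1 ± 10.7 against 2.92 ± 0.987 CPM (edgeR log2 fold change 5.02 with SE 0.20 and adjusted p = 3.63e-07), and Cd68, a macrophage glycoprotein, was at 29.8 ± 1.77 against 9.96 ± 1.65 CPM (edgeR log2 fold change 1.58 with SE 0.14 and adjusted p = 2.33e-05). Slc15a3, an endolysosomal peptide and histidine transporter, was higher by 1.37. Of 18 subunits of the V-ATPase, the pump that acidifies the lysosome, 5 were higher and 0 lower (27.8% and 0%), among them Atp6v0e2 (3.20, 4.39 ± 1.49 against 0.4696 ± 0.0951 CPM), Atp6v1a (0.48) and Atp6v1c1 (0.45). Atp6v0e2 passed the filter on low counts only through its DKO libraries. The inhibitors of cysteine proteases had 4 of 9 genes high enough to test, and all 4 were higher. These were Kng1 (1.08) and Kng2 (0.80), with secreted products, the intracellular cystatin Cstb (0.67) and, named after its values were seen, the secreted cystatin Cst3 (0.45).

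Of 13 genes that sort proteins to lysosomes 2 were higher and 2 lower (15.4% each), among them Gga2 (-0.60), an adaptor for mannose 6-phosphate receptors, Gnptg (-0.61), a subunit of the enzyme that makes that tag, and the retromer gene Vps29 (0.42). Of 18 genes of the TFEB family and of lysosomal nutrient sensing 1 was higher and 4 lower (5.56% and 22.2%), including Lamtor4 (-0.67), Mtor (-0.77) and Fnip2 (-1.08). Tfeb, named after its values were seen, was the other lower gene, at 8.89 ± 1.46 against 13.9 ± 2.64 CPM (edgeR log2 fold change -0.64 with SE 0.18 and adjusted p = 0.0178), and Rragc, likewise named afterwards, the higher one (0.24). Of 20 autophagy genes 1 was higher and 8 lower (5% and 40%), including Atg3 (-0.82), Atg7 (-0.70) and Ulk1 (-1.40), and the higher one, again named afterwards, was the autophagy receptor gene Sqstm1 (0.66). In BKO livers 0 genes of any of these 7 lists passed by edgeR, and 17 of their 138 genes tested (12.3%) had an unadjusted p under 0.05, against 11.6% of all genes.

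Markers of liver cell types were counted in the same libraries, beside 19.2% of all genes higher and 16.6% lower in DKO livers. Of 12 general macrophage markers 9 were higher in DKO livers and 0 lower, and their summed level was 657 to 905 CPM in DKO and 359 to 560 in controls, the 560 being WT-7069. C1qa was at 65.8 ± 5.35 against 37.9 ± 8.34 CPM and was called, while Adgre1 at 30.2 ± 1.63 against 21.6 ± 7.87 CPM and Csf1r at 110.3 ± 8.49 against 86.3 ± 22.1 CPM did not pass. Markers of recruited and lipid-associated macrophages were higher for 8 of 9 tested, at 124 to 217 CPM in sum against 29.7 to 91.9. Of Kupffer cell markers 2 of 8 were higher and 1 lower (25% and 12.5%), near the shares of all genes, with overlapping sums of 471 to 565 and 434 to 674 CPM. Of stellate cell and fibroblast markers 7 of 10 were higher and 1 lower, at 1937 to 2920 against 441 to 641 CPM. Of hepatocyte markers 6 of 10 were lower and 0 higher, at 72010 to 105429 against 133228 to 161038 CPM. Neutrophil markers were higher for 3 of 3 tested, at 11.5 to 56.9 against 3.15 to 6.87 CPM, and dendritic cell markers for 3 of 5, at 16.3 to 21.6 against 8.71 to 11.4. The filter on low counts kept 3 of 6 neutrophil, 5 of 6 dendritic cell and 9 of 10 recruited macrophage markers. A marker too low in controls could be tested only if it was high enough in DKO, so these counts of tested genes lean to higher and serve as no test. Bile duct markers had 2 of 8 genes tested and 1 higher, Spp1, and summed to 67.2 to 847 CPM in DKO and 26.7 to 38.8 in controls, highest in DKO-7112 and without overlap. Most of that sum was Spp1, also a macrophage gene, at 377 ± 331 against 24.8 ± 3.02 CPM, while Krt19 was at 2.41 ± 1.91 against 0.798 ± 0.507 CPM and Sox9, which did not pass, at 5.93 ± 4.14 against 6.05 ± 2.36 CPM. Sinusoidal endothelial markers had 1 of 8 higher and 2 lower (12.5% and 25%), also near those of all genes, at 422 to 470 against 428 to 543 CPM. Lymphocyte markers, Cd3e and Cd79a among them, had 0 of 8 genes high enough to test, and summed to at most 7.47 CPM in any library of the experiment. In bulk RNA a change in the number of cells of a type and a change of RNA per cell cannot be told apart. Ctss, Laptm5 and Lgmn were high in the libraries with high macrophage marker sums, in DKO, in control WT-7069 and in BKO library F4, and the part of these cells in the result was not tested. This was not particular to them, since WT-7069 was the highest control for 11 of the 27 genes, as was WT-7139, and F4 the highest BKO library for 22. Within DKO, DKO-7112 had the highest sum, Laptm5 (65.3 CPM) and Lgmn (134), but its Ctss (74.1) lay below that of DKO-7068 (80.4) and DKO-7070 (86.3). Ctsl was also high in the DKO libraries, but was at 247 CPM in WT-7069, the lowest of the controls, and at 293 in F4, within the range of the other BKO libraries; the part of macrophages in its increase was not tested either.

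**Figure D5:**
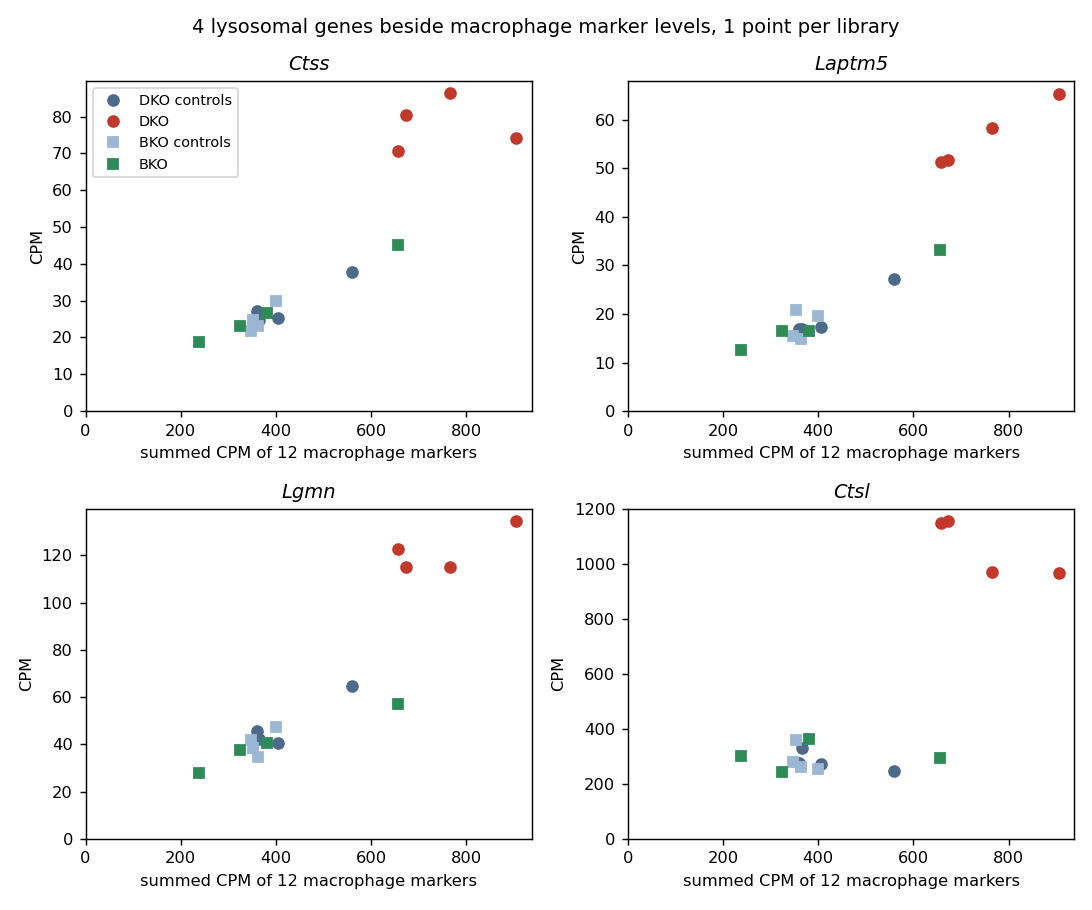
CPM of Ctss, Laptm5, Lgmn and Ctsl (vertical) against the summed CPM of 12 macrophage markers (horizontal), 1 point per library, with CPM scaled within each experiment. BKO library F4 and control WT-7069 lie above their groups for Ctss, Laptm5 and Lgmn but not for Ctsl.

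Reads of overlapping genes can move between partners, because no source used here states the strand setting of the counting. In GENCODE M21, 11 of the 27 genes overlap another gene and 8 share exon sequence with it. On the same strand these are Ctsd with Gm49369, Ctsl with Gm49230 and Glb1 with Tmppe, and on the opposite strand Ctsa, Ctsb, Ctsl, Ctsz, Hexa and Lamp1 meet Neurl2 and Pltp, Fdft1, Gm47123, Nelfcd, Tmem202 and Grtp1. Counts of these 8 genes may include reads of the partner.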

How the data were processed

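Whole-liver RNA was measured in 16 libraries in 4 groups of 4, with groups taken from the labelled genotypes and names from the labelled tags. The deposited values are raw read counts per gene in 1 table per experiment, which the authors did not normalize. Per the labels' protocols, TRIzol and RNeasy columns gave the RNA and NuGEN's Ovation system the libraries. The tools featureCounts 1.6.2, HISAT2 2.1.0 and Trim Galore 0.4.1 and the builds GRCm38, mm10 and GRCh38 are named per the submitters' processing notes. Not given in the sources used here are the role of each build, the annotation, the strand setting and the handling of shared reads. No column was left without a sample (0 of 16).

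The 27 genes and the lists were chosen with earlier results of these data known. The test was edgeR 4.0.16 in R 4.3.3 (filterByExpr, TMM, robust quasi-likelihood) within each experiment, and over 24394 shared gene names for the difference, with Benjamini-Hochberg adjustment over all genes tested and a threshold of 0.05. Knockouts were compared with their own controls alone. The standard error is the log2 fold change over the square root of F. RPKM used GENCODE M21 exon lengths, which may not be the authors' annotation. Named were each of the 27 genes, up to 3 called genes with the lowest p of each pathway list, and up to 3 defining markers of a cell type; others are marked as named after their values were seen. One gene that this rule names is not reported here. F5 and F5-2 may come from 1 animal. Their counts differed beyond sampling noise (chi-square over degrees of freedom 69.4, and 7.48 for DKO-7068 and DKO-7070, the closest pair within a group), so they are not 1 library deposited again, but this cannot show separate animals. Summed into 1 replicate, they left 0 calls in BKO and 11 higher and 2 lower effects. Other tools tried were voom in limma 3.58.1 and the Wald test of DESeq2 1.42.0; other scalings were DESeq2 size factors, bare library totals and TMM without the 20 most abundant genes; other filters were none and a minimum of 1 CPM in 4 libraries. Further fits left out each library, used all 16 libraries, had the tag series as a term, summed both F5 libraries and, chosen after seeing the data, summed DKO-7068 and DKO-7070. The scripts were tested on simulated data.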

Additional observations from a re-analysis of the deposited data

Results flagged for a closer look

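Of 108 sets of 4 libraries (27 genes in 4 groups), 7 held a library that stood apart from the other 3 by Dixon's criterion at the 95% level, and chance alone marks about 1 in 20 such sets. Among the DKO controls these were WT-7139 for Ctsf (27.5 CPM, the highest) and for Scarb2 (126, the lowest), WT-7114 for Glb1 (11.8, the lowest) and WT-7069 for Laptm5 (27.1, the highest). In DKO it was DKO-7070 for Tpp1 (102, the lowest). Among the BKO controls it was F2 for Ctsa (88.98, the lowest) and F5-2 for Ctse (11.2, the highest). The knockout effect differed between DKO and BKO in the joint edgeR test for 14 genes, as log2 DKO effect minus BKO effect. It was higher for Ctsk (2.46), Ctsl (1.82), Laptm5 (1.35), Lgmn (1.29), Ctss (1.22), Hexa (1.10), Neu1 (0.80), Ctsa (0.77), Glb1 (0.68), Ctsb (0.54), Psap (0.51) and Man2b1 (0.40). It was lower for Scarb2 (-0.82) and Ctsh (-0.49).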

How the results depend on the processing

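Leaving out 1 library at a time gave 12 to 15 of the 27 genes higher and 2 to 5 lower in DKO, 0 to 0 higher and 0 to 1 lower in BKO, and 9 to 12 with a higher and 1 to 3 with a lower effect in DKO than in BKO. Scaling by total counts only left 1 gene lower in DKO and 1 with a lower effect, and the DESeq2 Wald test called 2 as lower in BKO. Of the 17 calls in DKO, 12 stood under every alternative run and 13 in every fit without a library, and the 17 kept their direction in all of them. Of the 14 differences, 10 stood under every alternative and 14 kept their direction. Values that changed sign were of genes that were not called. In DKO this was Ctsc with DESeq2 size factors (-0.011), no filter (-0.013), the DESeq2 Wald test (-0.021), limma (-0.12), all 16 libraries in 1 fit (-0.024) and the tag series as a term (-0.098), and, with total counts only, Ctsf (0.044) and Tpp1 (0.15). With total counts only in BKO, Ctsd was at -0.034, Ctsl at -0.022, Lamp1 at -0.042, Npc2 at -0.054 and Lgmn at -0.060, and the difference of Ctsz at 0.10. Gusb in BKO was at 0.00012 with the 20 most abundant genes out of the scaling and at 0.00019 with all 16 libraries, Lipa at 0.011 with both F5 libraries summed, and Lgmn at -0.026 with limma. Leave-one-out ranges that crossed 0 were, in DKO, those of Ctsc (-0.50 to 0.16), Ctsz (-0.024 to 0.097), Tpp1 (-0.10 to 0.0037). In BKO they were Ctsd (-0.0025 to 0.094), Ctsh (-0.14 to 0.025), Ctsl (-0.051 to 0.18), Ctss (-0.13 to 0.35), Lamp1 (-0.034 to 0.076), Lamp2 (-0.090 to 0.013), Gusb (-0.065 to 0.067), Npc2 (-0.076 to 0.075), Lipa (-0.11 to 0.073), Psap (-0.15 to 0.014), Laptm5 (-0.23 to 0.33), Lgmn (-0.20 to 0.16), and for the difference Ctsc (-0.28 to 0.38), Ctsf (-0.071 to 0.16), Tpp1 (-0.021 to 0.12). The causes were not tested. No paired analysis was possible because the groups share no replicate number in the labels. The tag series, which is no pairing of single libraries, gave as a term 14 higher and 4 lower genes in DKO and 12 higher and 3 lower effects. Depth limits Ctsk, Ctse and Gla most, with 2 to 94 counts of Ctse per DKO-experiment library.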
